A study of Mus musculus with 14 samples.

Results

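Integrins and laminins are the receptors and the ligands of the contact between a muscle stem cell and its basement membrane. The genes described here were chosen by mouse symbol from the integrin alpha (Itga), integrin beta (Itgb) or laminin (Lama, Lamb, Lamc) families. Of 33 such genes in RefSeq, 25 were found in the deposited tables, out of 16545 genes with a symbol in at least 1 table. They were 12 integrin alpha, 7 integrin beta and 6 laminin genes. All 25 were listed in the RNA table, 15 in the m6A table, 9 in the Igf2bp3 table and 12 in the Lin28a table. The other 8 genes (Itga2, Itga8, Itgax, Itgb2, Lama1, Lama3, Lama4 and Lamc3) were not analysed here.

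An integrin is a pair of 1 alpha and 1 beta chain that spans the cell membrane, binds the matrix outside and is tied to actin inside through adaptors such as talin and vinculin. A laminin is a trimer of 1 alpha, 1 beta and 1 gamma chain, and its alpha chain carries the domains that integrins and dystroglycan bind. In muscle, the laminin with the alpha2 chain (Lama2, Lamb1 or Lamb2, Lamc1) surrounds the fibre and the satellite cell, and Itga7 with Itgb1 is its main integrin receptor.

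The study compared mouse skeletal muscle stem cells (MuSCs) labelled as control with Lin28a-positive (Lin28a+) MuSCs. According to the study, the Lin28a+ cells came by flow sorting from Lin28a-CreERT2; LSL-tdTomato mice, so the Lin28a promoter drove the Cre that marked them. Per the labels, both kinds of cell grew on Matrigel in medium with serum. Matrigel is itself a basement membrane extract rich in laminin, on which control and Lin28a+ cells grew alike. Of the 14 libraries, 2 belonged to each of 7 groups: input RNA, m6A-RIP and Igf2bp3-RIP for each kind of cell, and a Lin28a-RIP of Lin28a+ MuSCs alone. In RIP, RNA bound by an antibody to a protein, or to the RNA mark N6-methyladenosine (m6A), is sequenced. The age of the mice and the genotype of the control cells beyond the word control were not given in the sources used here. The labels do not say whether the libraries of a group came from separate animals or cultures, so p-values measure only the spread between those libraries, which may be technical.

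Total counts were 4842915 to 6220960 in the input libraries, 21350962 to 31830638 in m6A-RIP, 9215355 to 34142094 in Igf2bp3-RIP, and 36610494 and 33908110 in Lin28a-RIP. All 10 markers of myogenic cells fixed for this work were above 1 CPM in every input library, with summed levels of 14700 to 15800 CPM. Of 8 endothelial markers, Cdh5, Cldn5, Emcn, Kdr and Tek were not listed, and the list summed to 0.581 to 0.83 CPM. The 8 macrophage markers summed to 3.24 to 5.59 CPM, the 6 Schwann cell markers to 1.87 to 3.27 CPM, and the 8 fibro-adipogenic markers to 122 to 133 CPM. The 8 pericyte and smooth muscle markers summed to 5460 and 5540 CPM in control and to 7680 and 7700 CPM in Lin28a+ libraries. Of the 3 tested members of that list, Acta2 rose by 0.46 ± 0.02 on the log2 scale (adjusted p 2.63e-05), Notch3 rose by 0.41 ± 0.03 (adjusted p 2e-04), and Rgs5, at 2.44 and 2.09 CPM in control, fell by 3.35 (SE 0.407, adjusted p 0.000971). Of the 3 tested fibro-adipogenic markers, Ly6a rose by 1.61 ± 0.11 (adjusted p 0.000119), and Col3a1 (-0.05, adjusted p 0.514) and Col1a1 (0.09, adjusted p 0.945) did not pass the test. Of the 10 myogenic markers, 3 were higher in Lin28a+ MuSCs on the log2 scale (Myog by 1.86, Cdh15 by 0.77, Pax7 by 0.36). In 5 the RNA was lower, with log2 fold changes of -2.21 for Megf10, -1.21 for Myf5, -1.10 for Sdc4, -0.92 for Chrna1 and -0.53 for Des. The other 2 did not pass the test (Myf6 at 0.46, adjusted p 0.236, and Myod1 at 0.01, adjusted p 0.605). The part of these shifts in the results below was not tested. In bulk samples, fewer cells of a type and less RNA per cell cannot be told apart. Lin28a itself was not analysed here.

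The start sites of 5 of these genes are shown first, because a Lin28a-RIP peak reached across each of them. RefSeq promoter sequence (GRCm38.p6) was held for 19 of the genes found. The windows run from 70 bases before the RefSeq start to 30 bases after it, 5′ to 3′ on the gene's strand, and capitals mark the bases that lie inside a Lin28a-RIP peak.
Itgb1, chr8:128685584-128685683, plus strand: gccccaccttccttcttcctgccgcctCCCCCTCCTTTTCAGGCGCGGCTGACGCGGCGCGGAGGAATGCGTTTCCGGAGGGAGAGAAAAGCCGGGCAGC
Itgav, chr2:83724327-83724426, plus strand: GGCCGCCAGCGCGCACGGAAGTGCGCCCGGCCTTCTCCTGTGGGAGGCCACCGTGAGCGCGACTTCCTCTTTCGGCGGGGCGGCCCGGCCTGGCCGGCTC
Lamb1, chr12:31265223-31265322, plus strand: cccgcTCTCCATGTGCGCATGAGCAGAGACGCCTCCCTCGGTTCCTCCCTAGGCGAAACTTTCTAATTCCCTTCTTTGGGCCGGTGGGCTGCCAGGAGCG
Lama5, chr2:180225830-180225929, minus strand: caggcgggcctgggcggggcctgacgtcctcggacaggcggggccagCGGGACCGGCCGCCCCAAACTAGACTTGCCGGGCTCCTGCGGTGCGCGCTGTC
Itga3, chr11:95076685-95076784, minus strand: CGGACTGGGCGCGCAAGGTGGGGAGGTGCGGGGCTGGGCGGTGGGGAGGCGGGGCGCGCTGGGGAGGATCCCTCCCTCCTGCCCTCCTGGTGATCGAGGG
The Lin28a-RIP peak began 43 bases before the RefSeq start in Itgb1, 65 in Lamb1 and 23 in Lama5, and it filled all 70 upstream bases shown of Itgav and Itga3. No Igf2bp3-RIP peak annotated to the gene (0 in each) reached into any of these 5 windows. In Itgb1 and Itgav, however, an Igf2bp3-RIP peak began just past the window, at chr8:128685689 and chr2:83724429. Both overlapped the Lin28a-RIP peak marked above. The letters GGAG, a motif known for Lin28 binding, occurred on the gene's strand in 4 of the 5 windows, all but that of Lama5, and in 51.9% of all 32851 RefSeq windows of the same 100 bases (76.1% on either strand). Within the 30 bases after the RefSeq start it occurred in 2 of the 5 (Itgb1 and Lamb1), and in 22.8% of all windows. In Itgav and Itga3 each match lay before the start, outside the RNA as RefSeq annotates it. A match of 4 letters is a description of the sequence and not a site.

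The first question was which receptor and ligand RNAs differed between Lin28a+ and control MuSCs. RNA of 15 members passed the filter on low counts. Of these, 4 rose (Itga3, Itga5, Lama5, Lamb2), 8 fell (Itga4, Itga6, Itgav, Itgb1, Itgb6, Lama2, Lamb1, Lamc1) and 3 did not pass the test (Itga7, Itga10, Itgb5). Of all 11317 genes tested by edgeR's quasi-likelihood test, 28.1% were higher and 28.7% lower at an adjusted p under 0.05, so a call by itself is common in this comparison. The median log2 fold change (Lin28a+ over control) was -0.71 over the 15 members and 0.01 over all genes. The 8 members that changed at least 2-fold carry most of what follows. RNA levels below are CPM (counts scaled to a common library total) after TMM scaling, a correction for library composition, and the log2 fold changes are given ± SE with n = 2 libraries per group.

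**Figure D1:**
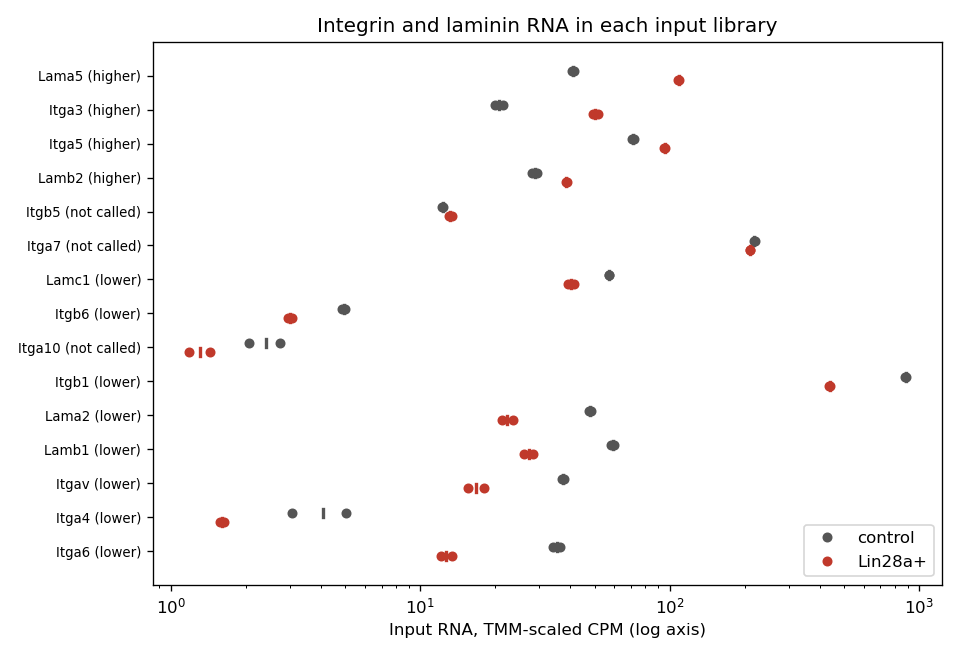
Input RNA of the 15 genes that passed the filter, in TMM-scaled CPM on a log axis, with 1 point per library and a tick at the mean of the 2 libraries of a group. Genes are ordered by log2 fold change from 1.41 (Lama5) to -1.47 (Itga6), and the test's call is written beside each name.

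Itgb1, the beta chain shared by the laminin, fibronectin and collagen receptors of muscle, was read at 887.5 and 879.7 CPM in control and at 435.1 and 440.2 CPM in Lin28a+ libraries. The groups lay far apart, with a fall by 1.01 on the log2 scale (SE 0.0224, adjusted p 5.7e-06), or 2.02-fold. Among its alpha partners for laminin, Itga6 was at 34.1 and 36.4 CPM in control and at 13.4 and 12.1 CPM in Lin28a+. Itga6 fell by 1.47 (SE 0.0762, adjusted p 5.13e-05), which was the largest fall among the members tested. Itga7, the muscle laminin receptor, stood at 217.9 and 219.0 CPM in control and at 209.5 and 209.8 CPM in Lin28a+. Its log2 fold change of -0.06 ± 0.04 did not pass the test (adjusted p 0.227), which leaves the main alpha chain of the muscle laminin receptor within a narrow band while its beta chain was lower. Itga3, an alpha chain that prefers laminins with the alpha5 chain, went the other way, from 21.5 and 19.9 CPM in control to 49.3 and 51.5 CPM in Lin28a+. It rose by 1.28 ± 0.06 on the log2 scale (adjusted p 3.74e-05), or 2.44-fold.

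The laminin chains divided in the same manner into members that rose and members that fell. Lama2, whose loss causes congenital muscular dystrophy, was at 48.5 and 47.5 CPM in control and at 21.2 and 23.5 CPM in Lin28a+ libraries. It fell by 1.10 (SE 0.0614, adjusted p 6.35e-05), or 2.15-fold. Lama5 was at 41.2 and 40.7 CPM in control and at 108.7 and 108.4 CPM in Lin28a+. Its rise of 1.41 ± 0.04 (adjusted p 7.65e-06), or 2.65-fold, was the largest rise among the members tested. Both the alpha chain Lama5 and its receptor chain Itga3 were therefore higher, and Lama2 was lower. The beta chain Itgb1, the partner of Itga3 as well as of Itga6 and Itga7, was lower. The chains of the pair Itga3-Itgb1 thus moved in opposite directions.

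Of the laminin beta chains, Lamb1 went from 59.8 and 58.3 CPM to 26.1 and 28.2 CPM. It fell by 1.12 (SE 0.054, adjusted p 4.19e-05). Lamb2, the beta chain enriched at the neuromuscular junction, went from 28.1 and 29.5 CPM to 38.3 and 38.8 CPM. Its rise of 0.42 ± 0.05 (adjusted p 0.000991) was much smaller than that of Lama5, and DESeq2 gave it an adjusted p of 0.171. Lamc1, the gamma chain of most laminins, went from 56.9 and 57.1 CPM to 39.1 and 41.5 CPM. It fell by 0.50 (SE 0.0474, adjusted p 0.000378). In each of these genes the libraries of the 2 groups did not overlap. Lamb3, a chain of epithelial laminin, was under the filter.

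Among receptors for fibronectin and other ligands with the RGD motif, Itgav was at 36.9 and 37.6 CPM in control and at 15.5 and 18.0 CPM in Lin28a+. It fell by 1.16 (SE 0.0747, adjusted p 0.000101). Itga5, which pairs with Itgb1 as the fibronectin receptor, went from 70.4 and 71.9 CPM to 95.1 and 95.7 CPM, a rise of 0.42 ± 0.03 (adjusted p 0.000221). The 2 alpha chains thus moved in opposite directions. Of the beta partners of Itgav, Itgb5 stood at 12.2 and 12.4 CPM in control versus 13.4 and 13.1 CPM in Lin28a+, a difference of 0.11 ± 0.16 that did not pass the test (adjusted p 0.623). Itgb6 was at 4.87 and 4.99 CPM in control and at 2.95 and 3.07 CPM in Lin28a+. Its fall of 0.71 (SE 0.232, adjusted p 0.0445) lay close to the threshold, and it missed it when any 1 of the 4 libraries was left out (adjusted p 0.0857 to 0.152) and with DESeq2 (0.467). Itgb3 and Itgb8 were under the filter, with 1.04 to 1.65 CPM and 0.344 to 1.40 CPM before TMM scaling.

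Itga4, which binds Vcam1, was at 5.06 and 3.06 CPM in control and at 1.57 and 1.64 CPM in Lin28a+. It fell by 1.30 (SE 0.334, adjusted p 0.0196). The call was lost without control input replicate 1 (log2 fold change -0.93, adjusted p 0.0982), without Lin28a+ input library a (0.0962), without Lin28a+ input library b (0.0829) and with DESeq2 (0.225). Itga10, a collagen receptor chain, stood at 2.06 and 2.73 CPM in control versus 1.18 and 1.43 CPM in Lin28a+, with a log2 fold change of -0.88 ± 0.37 that did not pass the test (adjusted p 0.091). The 10 genes under the filter (Itga1, Itga2b, Itga9, Itga11, Itgae, Itgb3, Itgb4, Itgb7, Itgb8, Lamb3) did not exceed 2.58 CPM in any library. Itga9, which binds tenascin and osteopontin, was one of them, at 1.72 and 2.58 CPM in control versus 0.659 and 0.317 CPM in Lin28a+ before TMM scaling. The deposited counts behind such values are few, and they may be means over transcripts.

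The partners of these receptors were read from lists fixed for this work. Each list stands beside all 11317 genes tested, of which 28.1% rose and 28.7% fell, with a median log2 fold change of 0.01. Of 22 names of integrin ligands, which include older symbols of 2 genes, 14 passed the filter, 11 fell, 2 rose and 1 did not pass the test, with a median log2 fold change of -0.85. Spp1, osteopontin, had the smallest p among the falls, and went from 201.2 and 201.6 CPM to 13.8 and 13.7 CPM. It fell by 3.87 (SE 0.0419, adjusted p 1.42e-06). Npnt, nephronectin, fell by 2.17 (adjusted p 6.56e-06) and Ccn2, a matricellular protein, fell by 2.02 (adjusted p 1.11e-05). Fn1, fibronectin, the ligand of Itga5 and Itgav, fell by 0.71 (adjusted p 2.92e-05), from 164.5 and 165.6 CPM to 102.2 and 99.4 CPM. Vcam1, the partner of Itga4, fell by 1.93 (adjusted p 0.000124). The 2 that rose were Fbln1, fibulin-1, by 1.15 (adjusted p 0.000178), and Tnc, tenascin-C, by 0.38 ± 0.04 (adjusted p 0.000363). Receptor and ligand thus both fell for Itgav with Fn1, and went opposite ways for Itga5 with Fn1. Both also fell for Itga4 with Vcam1, where the Itga4 call was lost in 3 of the 4 fits without 1 library and with DESeq2.

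Of 39 genes of the basement membrane and the dystroglycan complex, 31 passed the filter, 18 fell, 3 rose and 10 did not pass the test, with a median of -0.31. Col18a1, the collagen that holds endostatin, went from 439.6 and 457.5 CPM to 31.4 and 29.2 CPM and fell by 3.88 (adjusted p 1.42e-06). Ntn4, a laminin-binding netrin, fell by 1.83 (adjusted p 6.76e-06), and Nid1, which links laminin to type IV collagen, fell by 1.35 (adjusted p 9.06e-06). The genes that rose were the type IV collagen chains Col4a1, by 0.94 ± 0.03 (adjusted p 1.29e-05), and Col4a2, by 0.73 ± 0.03 (adjusted p 3.81e-05), and the Lama5 receptor Bcam, by 1.69 ± 0.12 (adjusted p 0.000119). Bcam was at 5.06 and 6.60 CPM in control and at 19.1 and 19.0 CPM in Lin28a+. A second receptor of Lama5 was thus higher with Itga3, while Itgb1, the beta partner of Itga3, was lower. Dag1, dystroglycan, the other muscle receptor of Lama2, was at 128.7 and 128.1 CPM in control and at 83.5 and 77.3 CPM in Lin28a+. It fell by 0.67 (SE 0.0424, adjusted p 9.18e-05).

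Of 47 names of integrin adaptors and adhesion genes, 43 passed the filter, 25 fell, 8 rose and 10 did not pass the test, with a median of -0.27. Fyn, a kinase near integrins, fell by 1.5 (adjusted p 1.31e-05), Cav3, the muscle caveolin, by 1.09 (adjusted p 2.75e-05) and Vcl, vinculin, by 0.46 (adjusted p 4.42e-05). Those that rose with the smallest p were the tetraspanins Cd82, by 0.74 ± 0.03 (adjusted p 2.97e-05), and Cd63, by 0.54 ± 0.03 (adjusted p 4.88e-05), and the adaptor Zyx, by 0.45 ± 0.04 (adjusted p 0.000333). With DESeq2 the adaptor list had 13 genes that fell and 4 that rose. The share of all genes called by DESeq2 is not given here.

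The next question was whether the m6A-RIP signal of these genes moved with their RNA. The m6A table held 31 rows in 15 of the genes, each row an entry on a transcript without a position. Of the 31 rows, 6 rose, 13 fell and 12 did not pass the test, in a table where 61.8% of rows were called. Summed by gene, 5 of 15 rose and 7 fell, where 32.5% of 9413 genes rose and 33.7% fell. The median log2 fold change was -0.07 over the 15 genes and 0.01 over all genes. Without TMM scaling the median shifted by -0.15 over all rows, by -0.10 over all genes and by -0.13 relative to input. Then 4 of the 31 rows rose and 17 fell, 3 of the 15 genes rose and 8 fell, and the rises of Itga1 and Itgb4 were no longer called (adjusted p 0.176 and 0.421).

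**Figure D2:**
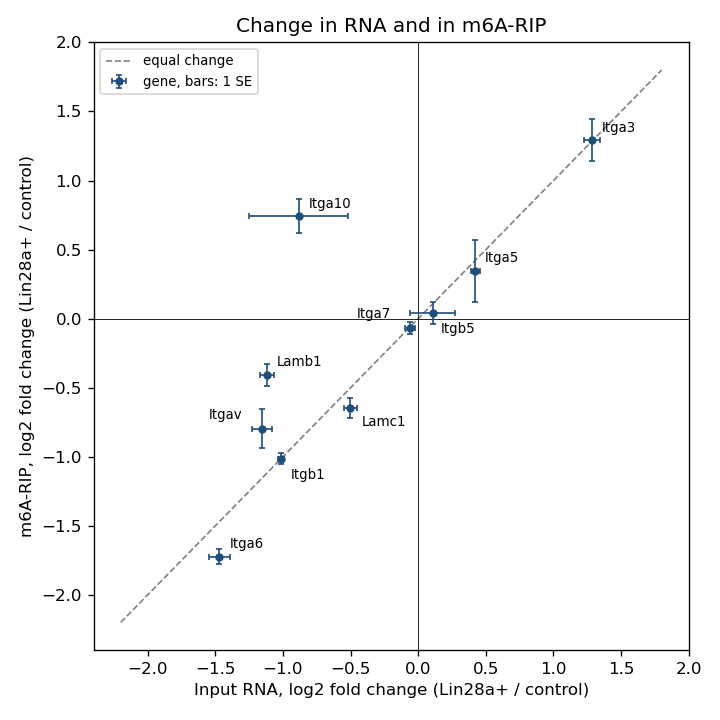
Log2 fold change in m6A-RIP against log2 fold change in input RNA for the 10 genes tested in both, with bars of 1 SE and a dashed line of equal change. Itgb1 lies on the line at -1.01 on both axes, the rows labelled Lamb1, which may hold reads of Dld, lie above it (-1.12 in RNA, -0.41 in m6A-RIP) and Itga10 is the one gene with opposite signs.

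Itgb1 had 4 m6A rows, which summed to 574.9 and 578.7 CPM in control and to 285.9 and 285.3 CPM in Lin28a+ libraries. Its m6A-RIP signal fell by 1.01 (SE 0.0378, adjusted p 3.08e-10), and each of its 4 rows fell, by 0.92 to 0.99. A model with an interaction of cell type and assay tested whether the m6A-RIP signal changed more than the input RNA did. For Itgb1 this difference was 0.00 ± 0.05 (log2, adjusted p 1), so its m6A-RIP signal halved along with its RNA. Itga6 had 2 rows, which summed to 107.9 and 110 CPM in control and to 33.1 and 32.8 CPM in Lin28a+. Its fall of 1.72 (SE 0.0552, adjusted p 8.14e-11) differed from that of its RNA by -0.25 ± 0.14, which did not pass the test (adjusted p 0.466).

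Itga7 was flat in m6A-RIP as in RNA, at 163.1 and 162.1 CPM in control versus 157.2 and 153.1 CPM in Lin28a+, and none of its 3 rows passed the test. With total counts in place of TMM its value was -0.17 (adjusted p 0.00272). Itga3 rose by 1.29 ± 0.15 (adjusted p 8.14e-06), from 5.98 and 6.74 CPM to 16.3 and 14.8 CPM, with a difference from its RNA of 0.01 ± 0.13 (adjusted p 1). Itga5, at 2.62 to 3.78 CPM, did not pass the test (adjusted p 0.195). Rows labelled Itgb5, at 34.3 to 38.2 CPM in sum, did not pass it either (adjusted p 0.672). The largest of the 3 rows (772 of the counts in control replicate 1, against 98 and 283) carries the same transcript label as an Igf2bp3-RIP peak that lay in the neighbouring gene Umps. These rows have no positions, so reads of Itgb5 and of Umps cannot be told apart in it.

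Itgav fell by 0.80 (SE 0.139, adjusted p 0.000274), from 18.7 and 18.1 CPM to 9.40 and 11.7 CPM. Of its 2 rows, 1 fell (log2 fold change -1.03) and the other, at -0.47, missed the threshold. Its m6A-RIP signal relative to input was 0.36 ± 0.17 and did not pass the test (adjusted p 0.332), except without Lin28a+ m6A-RIP library a (0.50, adjusted p 0.0497). Lamc1 fell by 0.65 (SE 0.0731, adjusted p 6.64e-06), from 59.9 and 58.0 CPM to 35.4 and 39.8 CPM, and did not differ from its RNA beyond the spread (-0.15 ± 0.10, adjusted p 0.634).

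The rows labelled Lamb1 differed from Lamb1 RNA. Their sum went from 40.7 and 42.7 CPM in control to 33.5 and 29.5 CPM in Lin28a+, a fall of 0.41 (SE 0.0812, adjusted p 0.000771), against a fall of 1.12 in RNA. Relative to input, this signal was higher in Lin28a+ MuSCs by 0.71 ± 0.12 on the log2 scale (adjusted p 0.00386), or 1.64-fold. The 2 rows were unlike each other, since one fell by 0.99 (adjusted p 0.00017) and the other, larger row had a log2 fold change of -0.20 (adjusted p 0.0671). Set alone against Lamb1 RNA, the first gave 0.08 ± 0.15 (adjusted p 0.915) and the larger one 0.87 ± 0.12 (adjusted p 0.00108), so the call rests on the larger row. Both rows carry a transcript label that the protein RIP tables use for peaks in Lamb1 and also for peaks in the neighbouring gene Dld. Dld RNA fell by 0.38 (SE 0.0387, adjusted p 0.000488), and without positions reads of Lamb1 and of Dld cannot be told apart in these rows. Only Lamb1 and Itga10 passed this test among 15 members, both higher relative to input, and none was lower. Of all 7950 genes in the test, 3.19% were higher and 3.72% lower. Itga10 was higher relative to input by 1.63 ± 0.36 (adjusted p 0.0179), from RNA of under 3 CPM. The Itga10 call was lost without control input replicate 2 (adjusted p 0.252), without Lin28a+ input library a (0.143) and without Lin28a+ input library b (0.0803).

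For 5 of the 15 genes (Itga1, Itga2b, Itgae, Itgb4, Itgb7) the RNA was under the filter although the m6A-RIP counts were not small. Itgb7, a leukocyte integrin chain, had 0.0321 to 0.22 CPM of RNA and 83.0, 81.0, 98.6 and 99.3 CPM of m6A-RIP in the 2 control and 2 Lin28a+ libraries. Itgb4, the hemidesmosome chain, had 0.158 to 0.482 CPM of RNA and 73.5 to 86.7 CPM of m6A-RIP. Itga2b, a platelet chain, had 0.579 to 0.732 CPM of RNA and 94.1 ± 0.437 CPM (SD, n = 2) of m6A-RIP in control against 72.0 ± 5.23 CPM in Lin28a+. All 3 of its m6A rows carry the transcript label of the Itga2b-labelled protein RIP peaks, each of which lay in the nearby gene Gpatch8, whose RNA fell by 0.39 (adjusted p 0.00579). Since m6A rows carry no position, reads of a neighbouring or overlapping gene cannot be told apart from reads of these genes. Their m6A-RIP calls (Itgb7 by 0.27 ± 0.05 higher, Itgb4 by 0.16 ± 0.06 higher, Itga1 by 0.27 ± 0.11 higher, Itga2b -0.38 and Itgae -0.47) are given as values of the annotated symbol only. The calls of Itga1, Itgae and Itgb4 were lost without single libraries, among them control m6A-RIP replicate 2 (adjusted p 0.0985, 0.173 and 0.259), and with DESeq2 (0.0701, 0.0529 and 0.0687).

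The RIP tables of the proteins give peaks with positions (mm10), which were compared with the RefSeq genes of GRCm38.p6. In Lin28a-RIP, 200 of 21616 peaks were annotated to 12 members, and 195 of the 200 (97.5%) lay inside the gene they were annotated to, against 86.1% of all peaks. In Igf2bp3-RIP, 84 of 19465 peaks were annotated to 9 members, and 77 (91.7%) lay inside, against 80.6% of all. The exceptions change which genes count as bound. All 3 Lin28a-RIP and all 4 Igf2bp3-RIP peaks labelled Itga2b lay in Gpatch8, the nearby gene. Gpatch8 RNA fell by 0.39 (adjusted p 0.00579), from 27.0 and 27.5 CPM to 20.6 and 21.1 CPM. The single Igf2bp3-RIP peak labelled Itgb5, at chr16:33955151-33955799, lay in Umps, whose RNA rose by 0.73 ± 0.03 (adjusted p 3.31e-05), and the peak itself had a log2 fold change of 0.70 ± 0.37 (adjusted p 1). The single Lin28a-RIP peak labelled Itgb8, at chr12:119262524-119262728, lay outside the RefSeq Itgb8 gene. The other exceptions were 1 Lin28a-RIP and 2 Igf2bp3-RIP peaks labelled Lamb1, which lay in Dld and left 28 and 11 inside that gene. With these left out, 10 members had a Lin28a-RIP peak and 7 an Igf2bp3-RIP peak. Here and below, a peak that lay in a member but carried another gene's label was not counted.

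Among the 15 members that passed the RNA filter, 10 (66.7%) had a Lin28a-RIP peak and 7 (46.7%) an Igf2bp3-RIP peak. Among all 11306 expressed genes these shares were 25.4% and 32.9%. The Igf2bp3 count includes Itgb5, whose peak lay in Umps. Of the 4 members whose RNA rose, 3 (Itga3, Lama5, Lamb2) had Lin28a-RIP peaks and 0 had an Igf2bp3-RIP peak under their own label. Of the 8 whose RNA fell, 6 (Itgb1, Itgav, Itga6, Lama2, Lamb1, Lamc1) had peaks of both proteins and 2 (Itga4, Itgb6) had neither. These counts are a description of 15 genes and were not tested.

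**Figure D3:**
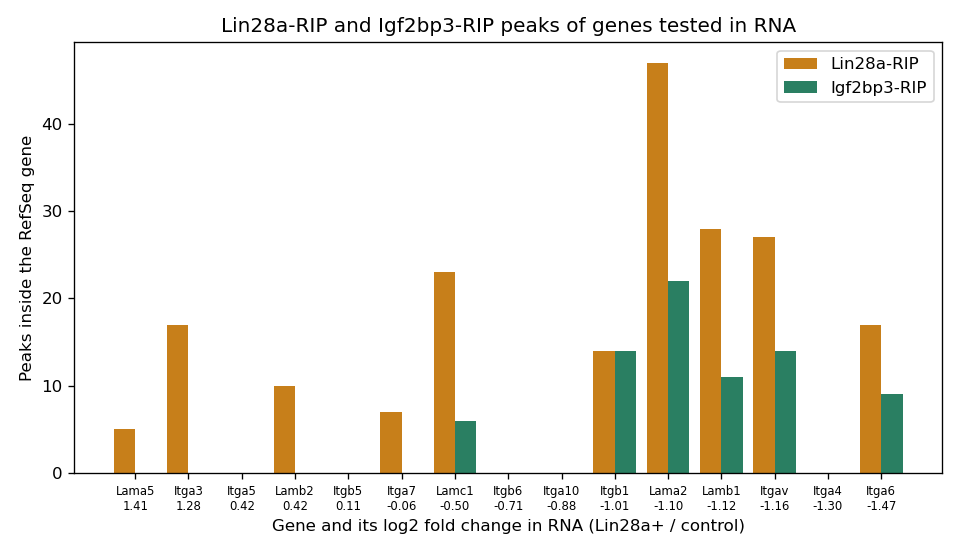
Number of Lin28a-RIP and Igf2bp3-RIP peaks annotated to the gene and inside it in RefSeq, for the 15 genes tested in RNA. Genes are ordered by log2 fold change in RNA, which stands under each name. Under their own label, Itga3 (17), Lama5 (5), Lamb2 (10) and Itga7 (7) have Lin28a-RIP peaks only, and the genes with both kinds of peak all lie at or below -0.50.

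Itgb1 held the densest signal of either protein among the integrins and laminins with peaks on the gene, apart from the Itga9 peak described below. Such densities are not scaled to RNA level, so they do not compare binding per RNA between genes. Itgb1 RNA was read at 887.5 and 879.7 CPM in control and at 435.1 and 440.2 CPM in Lin28a+ libraries. Its 14 Lin28a-RIP peaks covered 6.58 kb with 802 and 812 CPM per kb of peak, against medians of 62.9 and 63.4 CPM per kb over all peaks. Its 14 Igf2bp3-RIP peaks covered 5.70 kb with 590.0 and 849 CPM per kb in control and 461 and 780.4 CPM per kb in Lin28a+. All 14 peaks of each protein overlapped a peak of the other. The peak with the most counts was the same region for both, chr8:128731825-128733184 for Lin28a and chr8:128731827-128733103 for Igf2bp3, near the 3′ end of the gene.

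Itgav had 27 Lin28a-RIP peaks (107 and 108 CPM per kb) and 14 Igf2bp3-RIP peaks, and all 14 overlapped a Lin28a-RIP peak. Here too the leading peak lay at the 3′ end for both proteins, at 96.7% of the gene's length from its start. Itga6 had 17 Lin28a-RIP peaks (49.1 and 49.0 CPM per kb) and 9 Igf2bp3-RIP peaks, each overlapping a Lin28a-RIP peak. Lama2 had the most peaks of any member, 47 for Lin28a (61.4 and 62 CPM per kb) and 22 for Igf2bp3, all 22 overlapping. Its first Lin28a-RIP peak lay 55.1% along the RefSeq gene, so peaks were found on the later part of this long gene. Inside the gene, Lamb1 had 28 Lin28a-RIP peaks (159.6 and 158.2 CPM per kb) and 11 Igf2bp3-RIP peaks, and Lamc1 had 23 (63.2 and 64.6 CPM per kb) and 6.

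The genes with Lin28a-RIP peaks and no Igf2bp3-RIP peak lay on both sides of the median density of all peaks and below its 90th percentile of 214.6 and 214.0 CPM per kb. Itga3 had 17 peaks with 108.5 and 106.5 CPM per kb, close to the values of Itgav. The Itga3 peak that covers the start site printed above (chr11:95076192-95076787) held 1996 and 1736 counts, the most of its peaks in replicate 1, while 2 other peaks held more in replicate 2 (1794 and 1781). Itga7 had 7 peaks with 99.4 and 98.3 CPM per kb. All of them but that at chr10:128933721-128934085 also lay in the RefSeq gene Gm46186, and the start-site peak of Lama5 also lay in Gm52542. Reads of these overlapping genes cannot be told apart here. Lama5 had 5 peaks under its own label with 58.2 and 54.8 CPM per kb. They lay at 0.4% to 37.9% and at 95.6% to 99.1% of the gene, and peaks under other labels were not counted. Lamb2 had 10 peaks with 45.8 and 45.5 CPM per kb. In the 2 Lin28a-RIP libraries these values differed little. No control for the antibody was among the files used here, so a peak count was not compared with an unspecific background.

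**Figure D4:**
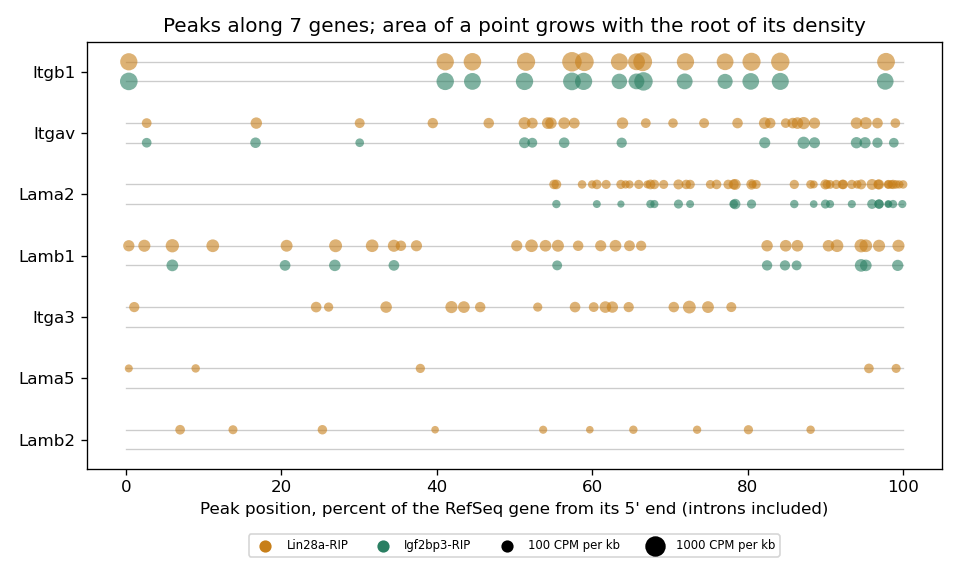
Position of each peak annotated to 7 genes and inside them, as percent of the RefSeq gene from its 5′ end with introns included. Lin28a-RIP is above and Igf2bp3-RIP below, and a point's area grows with the root of its CPM per kb in Lin28a+ libraries. The Igf2bp3-RIP peaks of Itgb1, Itgav, Lama2 and Lamb1 sit under Lin28a-RIP peaks, and Itga3, Lama5 and Lamb2 have only Lin28a-RIP peaks under their own label.

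Over all members, 76 of 200 Lin28a-RIP peaks (38%) shared 1 base or more with a peak of Igf2bp3, against 52.4% of all 21616 Lin28a-RIP peaks. In the other direction, 82 of 84 Igf2bp3-RIP peaks (97.6%) shared 1 base or more with a peak of Lin28a, against 60.4% of all 19465. When each peak had to cover at least 50% of the other, the shares of members were 35% and 83.3%, and those of all peaks 43% and 47.7%. The 2 exceptions were the Itgb5-labelled peak in Umps and the Itga9 peak. Peaks were counted here by label, so the 200 and the 84 include 5 and 7 peaks that lay outside their annotated gene. Peaks of 1 gene share that gene's RNA and are not independent of each other.

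The last comparison asked whether Igf2bp3-RIP counts differed between control and Lin28a+ MuSCs. Of the 84 peaks of members, 0 passed the test by edgeR and 0 by DESeq2, and 12 had an unadjusted p under 0.05. Of all 19465 peaks, 0.123% were called by edgeR and 5.22% had an unadjusted p under 0.05. The replicates of 1 group lay far apart in this assay, with a biological coefficient of variation of 27.9% against 2.48% in RNA, and the totals of replicates 1 and 2 differed severalfold. These fits left out the replicate number. A fit with that number as a block called more peaks, as given in the last section with its limit.

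All 12 peaks with an unadjusted p under 0.05 were peaks of Lama2. Each of its 22 peaks had a negative log2 fold change, from -1.27 to -0.46 with a median of -0.77. The lowest adjusted p among them was 0.425 in this edgeR fit, which left out the replicate number. Summed over its peaks, Lama2 was at 356 and 469.8 CPM in control and at 234 and 255 CPM in Lin28a+ libraries, which did not overlap. Itgb1 peaks ranged from -0.44 to -0.09 with a median of -0.24, and its sums of 3365 and 4840 CPM in control overlapped those of 2631 and 4451 CPM in Lin28a+. Itgav peaks had a median of -0.05 and sums of 501 and 683 CPM in control versus 473 and 696 CPM in Lin28a+. The 11 peaks inside Lamb1 had a median of -0.30, Lamc1 of -0.20 and Itga6 of -0.40.

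Relative to input RNA, the Igf2bp3-RIP signal of Itgav was higher by 1.10 ± 0.39 on the log2 scale (adjusted p 0.128) and that of Lamb1 by 0.91 ± 0.25 (adjusted p 0.0722), or by 0.90 ± 0.29 (adjusted p 0.102) without the 2 peaks that lay in Dld. Neither passed the test, although both RNAs had more than halved. Itga6 was at 1.05 ± 0.84, Itgb1 at 0.77 ± 0.45, Lama2 at 0.31 ± 0.27 and Lamc1 at 0.29 ± 0.19. Of 9 members in this model, which left out the replicate number, 0 were called and 2 had an unadjusted p under 0.05. Over all 3927 genes 5.22% were called and 28.0% had such a p, and the median of all genes was 0.25. Leaving out Lin28a+ Igf2bp3-RIP replicate 1 brought Itgav (1.423, adjusted p 0.0334) and Lamb1 (1.15, adjusted p 0.0147) past the threshold, and leaving out Lin28a+ Igf2bp3-RIP replicate 2 did so for Lamb1 (0.68, adjusted p 0.0436). Without the peaks in Dld, Lamb1 passed in the first case (1.17, adjusted p 0.016) and not in the second (0.54, adjusted p 0.0566). The values of Itga2b and Itgb5 in this model come from peaks that lie in other genes and are not described.

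Itga9 had a single Igf2bp3-RIP peak of 380 bases, chr9:118674788-118675167, inside the gene and without a Lin28a-RIP or m6A row. It held 126627 counts in control replicate 1 and 45444 in Lin28a+ replicate 1, against 3313 and 2051 counts in replicates 2. As CPM these were 13741 and 3602 against 120.1 and 60.1. The high values followed the replicate number and not the cell type, from a gene with RNA of at most 2.58 CPM. The log2 fold change of -1.94 ± 2.08 did not pass the test (adjusted p 1).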

How the data were processed

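Input RNA and RNA pulled down with antibodies to m6A, Igf2bp3 or Lin28a from cultured mouse MuSCs were sequenced in 14 libraries, 2 per group. The authors deposited read counts per transcript-annotated gene, row or peak, and their notes name FastQC, HISAT2 (2.0.4), MACS2 (1.4.3) and DESeq2 (1.42.0) with the builds GRCh38 and mm10. Peak positions matched mouse mm10. The counter and the strand setting were not given in the sources used here. The deposited input values are expected counts with fractions and were rounded to whole numbers, and as they may be means over transcripts, levels of single genes were not ranked against each other, and sums over marker lists only compare libraries. The deposited m6A and RIP counts are whole numbers. The 2 Lin28a+ input columns carry m6A names under the input heading and no separate replicate number, so they are called library a and b, as are the Lin28a+ m6A columns. The Lin28a+ input columns correlated at 0.949 with the control input libraries and at 0.474 to 0.523 with m6A-RIP (across 7950 genes, which are not independent).

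Each whole table was fitted in edgeR (4.0.16, R 4.3.3; TMM, filterByExpr, quasi-likelihood F test, Benjamini-Hochberg adjustment, threshold 0.05), two-sided. The SE was derived from the fitted coefficient and its p. Relative-to-input tests used an interaction of cells and assay, with TMM factors set within each assay. The steps were tested on simulated data. Alternatives were DESeq2, other scalings, other filters, each library left out, a replicate block, larger peaks and a reciprocal overlap. Library values are given for the members of muscle receptor-ligand pairs and for members changed at least 2-fold, and of each other list for up to 3 rising and 3 falling genes of smallest p. The genes, lists and tests were chosen with earlier results of these data known, so no list was tested as a set. Sequences are from RefSeq. The precision covers counting error and the spread of 2 libraries. Results of 1 further item are not reported here.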

Additional observations from a re-analysis of the deposited data

How the results depend on the processing

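Directions and calls of Itgb1, Itga3, Itga5, Itga6, Itgav, Lama2, Lama5, Lamb1 and Lamc1 in RNA were kept under each alternative run. DESeq2 called 4 adaptor genes higher and 13 lower. In m6A-RIP by gene, 3 members were higher with DESeq2 and 3 with total counts, and 3 to 4 when a library was left out. Relative to input, 1 member was higher in m6A-RIP with at least 10 counts in every library, and 1 to 3 when a library was left out. In Igf2bp3-RIP, leaving out a library gave 0 to 1 lower peaks and, relative to input, 0 to 2 higher genes. Only Igf2bp3-RIP columns carry replicate numbers in both kinds of cell, and differences between replicates 1 and 2 correlated at 0.703 across peaks, but the labels do not say what a number marks. A fit with the replicate number as a block called 19 member peaks lower (15 of Lama2, 3 of Itga6, 1 of Itga9) and 1 higher (the Itgb5-labelled one). It called 1988 of all 19465 peaks, against 24 without the block. The replicate block within Igf2bp3-RIP called 6 members higher relative to input. The share of all genes called by that fit is not given here, so these 6 are not read as particular to the members. Signs turned only for values near 0 or of wide error. With total counts, Itgb5 in m6A-RIP was -0.0625 and Itga3 relative to input -0.12. When a library was left out, Itgb5 in m6A-RIP ranged from -0.0347 to 0.115, and m6A-RIP relative to input from -0.0845 to 0.0882 for Itga3, -0.193 to 0.0726 for Itga5, -0.026 to 0.00818 for Itga7, -0.00967 to 0.00871 for Itgb1 and -0.141 to 0.00878 for Itgb5. Itga9 in Igf2bp3-RIP relative to input ranged from -4.69 to 5.86. The cause of these changes was not tested. The restriction to peaks inside their annotated gene and the fits on single m6A rows of Lamb1 were chosen after seeing the data, and the restriction left 73 of the 76 overlapping Lin28a-RIP peaks. With 2 libraries per group, the spread between Igf2bp3-RIP replicates limits the precision of that assay.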
